A study of Mus musculus with 3 samples.

Results

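Collagens, laminins and integrins, the genes for the fibres and sheets of the extracellular matrix and for the receptors that hold cells to them, were described in ribosome-bound RNA purified through an Htr3a-Cre tag from the mouse cerebral cortex. They were selected by symbol alone: numbered collagen chains, laminin alpha, beta and gamma chains, and integrin alpha and beta chains, without the integrin-binding proteins Itgb1bp1, Itgb1bp2 and Itgb3bp. This gave 83 of 32532 gene symbols, namely 44 collagens, 11 laminins and 28 integrins, and genes without a count were kept. The 3 libraries form 1 group. Each came from the whole cerebral cortex of adult mice that carried Htr3a-Cre (NO176) and Rosa26-LSL-EGFP/Rpl10a. Cells in which Cre has acted make the ribosomal protein Rpl10a fused to EGFP, and antibodies against EGFP pull down their ribosomes with the bound messenger RNA, an assay named translating ribosome affinity purification (TRAP). Cre marks every cell in which the Htr3a transgene was active at any stage, so the tag can be present in cells that no longer express Htr3a. Unpurified cortex was not analysed here, and genes were therefore compared with one another within a library. The labels do not say whether replicates 1, 2 and 3 came from separate animals. The p-values for levels below therefore reflect the spread among 3 libraries, part of which may be technical. That spread is pooled in part over genes unless an unmoderated fit is named. The chi-square p-values set differences between libraries against counting noise alone. In bulk samples, fewer cells of a type and less RNA per cell cannot be told apart.

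Collagens are trimers with a triple helix. Fibrillar collagens form the fibres of connective tissue, collagen IV forms the network of basement membranes, FACIT collagens attach to fibres, and membrane-spanning collagens stay in the plasma membrane until their ectodomain is shed. Laminins are cross-shaped trimers of an alpha, a beta and a gamma chain and are the other main polymer of basement membranes. Integrins pair an alpha with a beta chain, and the pair sets the ligand: collagen, laminin, proteins with the RGD motif such as fibronectin and vitronectin, or counter-receptors on other cells. In the brain, fibrous collagen and laminin lie mainly around vessels and in the meninges, while some collagens, among them Col25a1 and Col19a1, are made by neurons.

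Gene counts came to between 13951332 and 14461053 per library. Of the GABAergic markers, 9 of 10 lay above the median gene, and Gad2, which makes GABA, stood at 2195 ± 111 TPM (± SD, n = 3 throughout). TPM is the share of transcripts after correction for exon length, scaled so that all genes with a length sum to the same total in each library. All 10 markers of the Htr3a class lay above it too, with the neuropeptide gene Vip at 1042 ± 169 TPM. Markers of other cells were high as well: 7 of 8 genes of the MGE class, which the Htr3a class does not include, lay above, and Sst was the highest marker at 8250 ± 552 TPM. Of the excitatory markers 11 of 12 lay above, with Camk2a at 2543 ± 302 TPM. Astrocyte markers were split. Of these 10 genes, 4 lay above, with Slc1a2 highest at 370 ± 43.9 TPM, and 4 below, with Gja1 lowest at 1.95 ± 0.547 TPM. Over all genes, 44.5% were called above the median gene and 43.9% below it in the test given below. Markers of 12 cell types were set beside the matrix genes. Vascular and meningeal markers were low in every library: the summed level was 11.4 to 12.2 TPM over 12 endothelial genes, 29.3 to 33.1 TPM over 10 mural genes, of which Rgs5 held 19.3 ± 0.319 TPM, and 28.9 to 36.0 TPM over 10 genes of meningeal and perivascular fibroblasts. The 11 microglial genes summed to 23.4 to 37.9 TPM with Trem2 at 0 counts, and the 10 oligodendrocyte genes to 286 to 483 TPM, highest in replicate 1. The part of these cell types in the levels below was not tested.

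Of the 83 genes, 23 reached 1 TPM in 3 of 3 libraries: 9 collagens, 3 laminins and 11 integrins. Another 41 had a mean under 0.5 TPM, and 6 of those had no count at all. All members together summed to 204, 193 and 190 TPM in replicates 1, 2 and 3. A few genes carried most of each family. The 3 highest held 63.2% of the summed collagen level, 49.9% of the integrin level and 79.6% of the laminin level. No member was abundant: the highest mean, that of Col25a1, was 20.4 TPM.

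**Figure D1:**
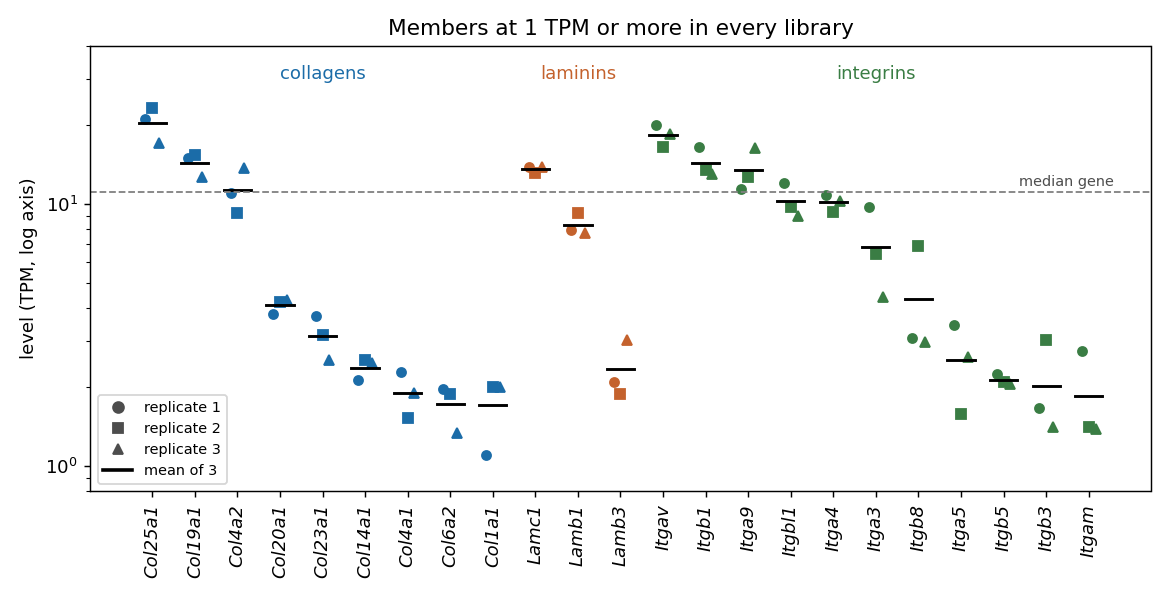
Level in TPM (log axis) of the 23 genes at 1 TPM or more in every library, by family, with a symbol per replicate and a bar at the mean of 3. The dashed line is the median gene at 11.1 TPM; Col25a1, Itgav, Col19a1, Itgb1, Lamc1 and Itga9 lie above it in 3 of 3 libraries, and Col25a1 and Itgav passed the test given below.

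Each gene was set against the median gene of its library, the median over the 16652 genes with a length and a count, at 10.2, 11.3 and 11.7 TPM in replicates 1, 2 and 3. Differences are on the log2(TPM + 0.1) scale and were tested with limma over all genes, with Benjamini-Hochberg adjustment and a threshold of 0.05. Of all genes, 44.5% were called above the median gene and 43.9% below it. Of the 77 members with a count, 2 were called above (2.60%), 67 below (87.0%) and 8 neither way, and the median difference was -4.23 against -0.03 over all genes. Those above were Col25a1, by 0.86 (SD 0.28; limma, adjusted p = 0.000883), and Itgav, by 0.71 (SD 0.21; limma, adjusted p = 0.00250). Both calls depended on the reference. Against the median of genes with at least 10 counts, which lies 0.57 higher, the differences were 0.29 and 0.15 (limma, adjusted p = 0.127 and 0.409), and against that of genes of at least 1 TPM in every library, which lies 1.07 higher, they turned to -0.21 and -0.36. The 8 members called neither way were Col19a1, Itgb1, Lamc1, Itga9, Col4a2, Itgbl1, Itga4 and Lamb1, with differences from 0.36 down to -0.42. With edgeR, 3 members were called above and 68 below. There Col19a1 passed above (0.38, edgeR, adjusted p = 0.0312) and Lamb1 below (-0.42, edgeR, adjusted p = 0.0338). Col4a2 at 0.01 and Itgbl1 at -0.12 lay nearest to the median gene from above and below.

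**Figure D2:**
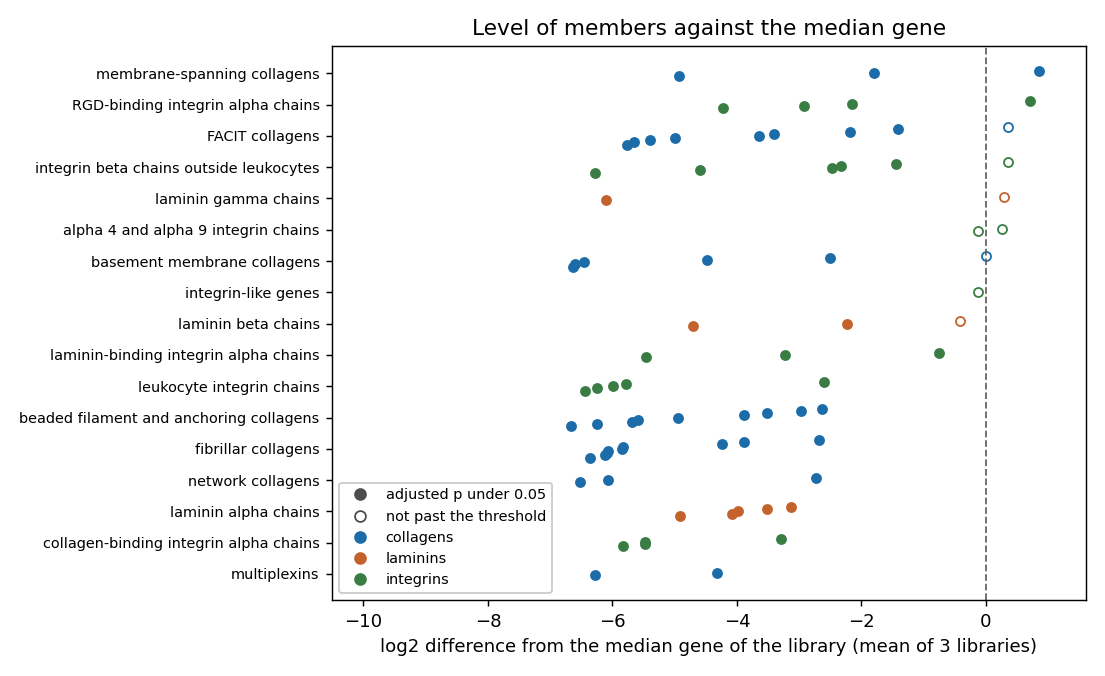
Mean log2 difference of members with a count from the median gene of their library, by class; filled symbols passed the adjusted threshold. Col25a1 and Itgav are the filled symbols to the right of the dashed line, and the highest multiplexin, collagen-binding integrin and laminin alpha chain lie at -4.32, -3.28 and -3.14.

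The 3 highest collagens were a membrane-spanning collagen, a FACIT collagen and a collagen IV chain, all above every fibrillar collagen in 3 of 3 libraries. Col25a1, a membrane-spanning collagen of neurons whose shed ectodomain is found in amyloid plaques, was at 21.0, 23.1 and 17.0 TPM in replicates 1, 2 and 3 (20.4 ± 3.09), from 750, 842 and 637 counts. It lies on chromosome 3 from 130131501 to 130599877 (GRCm38) and held 28.0% of the summed collagen level. Col19a1, a FACIT collagen made by subsets of cortical interneurons, was at 15.02, 15.3 and 12.7 TPM (14.3 ± 1.45). The library order was the same in both genes, with replicate 3 lowest, and Col25a1 was the higher in 3 of 3 libraries by a log2 difference of 0.50 (SD 0.08). The Col25a1 level depends on its length, since the merged exons span 12947 bases and the longest transcript 6701. With the longest transcript as length it was 29.9 TPM.

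The remaining membrane-spanning collagens were lower. Col23a1, found on epithelial and some neuronal cells, was at 3.73, 3.16 and 2.54 TPM. Col13a1, a collagen of the neuromuscular junction, had 0, 8 and 8 counts, and the epithelial hemidesmosome collagen Col17a1 had 0 in 3 of 3 libraries. Among the 9 FACIT collagens, Col20a1 was at 3.81, 4.22 and 4.31 TPM and Col14a1 at 2.12, 2.53 and 2.47 TPM. Both sat close together across libraries. The other 6 FACIT collagens, Col9a1, Col9a2, Col9a3, Col12a1, Col16a1 and Col22a1, had means between 0.117 and 0.999 TPM. Col9a1, a cartilage chain whose 3' end lies 9205 bases from that of Col19a1, had 0, 3 and 19 counts, all but 3 of them in replicate 3.

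Collagen IV was uneven. Its most common trimer combines Col4a1 and Col4a2 chains, with Col4a1 in excess. Col4a1 was at 2.28, 1.52 and 1.90 TPM (1.90 ± 0.381) from 47, 32 and 41 counts, while Col4a2 was at 10.96, 9.24 and 13.7 TPM (11.3 ± 2.23) from 200, 172 and 261 counts. The ranges did not overlap: Col4a2 was 5.68-fold higher, with log2 differences from 2.21 to 2.78 in the single libraries. The difference of 2.51 (SD 0.28) passed the test against Col4a1 run over all genes (limma, adjusted p = 1.15e-14). In an unmoderated fit, which uses the 3 differences of each gene alone, the adjusted p was 0.0110, and with the moderated fit without replicate 2 it was 0.000275. The measurement error of Col4a1 is shared by every gene in that test, in which 65.6% of all genes were called above Col4a1 and 21.1% below it. Of the 40 other collagens with a count, 4 were called above it and 27 below. With Col4a2 these were Col25a1, by 3.36 (limma, adjusted p = 2.81e-32), Col19a1, by 2.86 (limma, adjusted p = 8.59e-21), and Col20a1, by 1.09 (limma, adjusted p = 0.00974). For Col25a1 and Col19a1 the unmoderated adjusted p-values were 0.0122 and 0.0114, so the very small values rest on the spread pooled over genes. The Col20a1 call was lost without replicate 2 (0.93), without replicate 3 (1.06) or without the length correction (0.57). Col23a1 and Col14a1 were at differences of 0.70 and 0.32 (limma, adjusted p = 0.126 and 0.520). Col23a1 passed with edgeR (0.75, adjusted p = 0.0473), which called 5 collagens above Col4a1 and 26 below.

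The 4 further collagen IV chains, which form the networks of kidney, lung and eye, were near 0. Col4a4 had 13, 11 and 12 counts and lay at -1.98 against Col4a1 in log2 units (limma, adjusted p = 0.00436). Col4a3 had 0, 3 and 0 counts, and Col4a5 and Col4a6 had 1 each, both in replicate 3.

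Fibrillar collagens were low as a class: 1 of 11 reached 1 TPM in 3 of 3 libraries. That was Col1a1, the main chain of collagen I, at 1.11, 2.004 and 2.005 TPM, which differed from Col4a1 by a log2 value of -0.18 (limma, adjusted p = 0.741). Its partner chain Col1a2 was at 0.526, 0.286 and 0.752 TPM and the fibril-initiating Col5a1 at 0.983, 0.460 and 0.612 TPM. Col3a1, abundant in vessel walls and meninges, had 6, 2 and 1 counts. Counts of Col11a1, Col11a2, Col24a1, Col27a1 and Col5a2 lay between 0 and 8. The cartilage collagen Col2a1 and Col5a3 had 0 counts throughout. The floor set for a count of 0 is 3 counts, or 0.209, 0.215 and 0.207 CPM in replicates 1, 2 and 3. CPM is the count scaled by the gene total of the library. This floor is an allowance for counting error and not a strict maximum.

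Collagen VI chains, which form beaded filaments around cells, were present at a low level. Col6a2 was at 1.96, 1.88 and 1.33 TPM and Col6a1 at 2.15, 0.893 and 1.19 TPM, whereas Col6a3 was at 0.880, 0.832 and 0.376 TPM. Col26a1 was at 0.666, 0.609 and 1.65 TPM, high in replicate 3. Counts of 2 chains came almost wholly from a single library: Col6a5 had 2, 3 and 32 counts, and Col6a6 had 0, 24 and 0. Col6a4, Col7a1 and Col28a1 had at most 5 counts in any library. Of the network collagens, Col8a1, a chain of vascular and corneal membranes, was at 1.53, 0.953 and 2.70 TPM, while Col8a2 and Col10a1 had at most 1 count. The multiplexins of vascular basement membranes were low: Col15a1 had 9, 5 and 12 counts, and Col18a1, the source of endostatin, had 2, 0 and 1.

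Laminins were led by a gamma and a beta chain without an alpha chain of like level. Lamc1, the gamma chain of most laminins, was at 13.9, 13.1 and 13.8 TPM (13.6 ± 0.424), on chromosome 1 from 153218922 to 153332786. Lamb1 was at 7.94, 9.25 and 7.72 TPM (8.30 ± 0.826). Together with Lamb3 at 2.09, 1.88 and 3.04 TPM, these were the laminins at 1 TPM in 3 of 3 libraries. The 5 alpha chains, which carry the main receptor-binding domains, summed to 4.54, 3.52 and 3.47 TPM. No alpha chain reached 1 TPM in every library.

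Against Lamc1, 40.9% of all genes were called above and 47.2% below. Of the 10 other laminins, 0 were above, also at an unadjusted p under 0.05 and with edgeR, and 10 were below (limma). Lamc1 was the highest laminin in 3 of 3 libraries, so the count of 0 above only restates that rank. Lamb1 lay nearest, at -0.71 in log2 units (SD 0.18; limma, adjusted p = 0.0119). It no longer passed with the longest transcript as length (-0.06), without replicate 2 (-0.81) and without replicate 3 (-0.65). Lama3 was at -3.43, Lama2 at -3.80, Lama5 at -4.27, Lama4 at -4.37 and Lama1 at -5.21 (limma, adjusted p between 0.000113 and 0.000328). The nearest alpha chain was thus 10.8-fold below Lamc1.

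**Figure D3:**
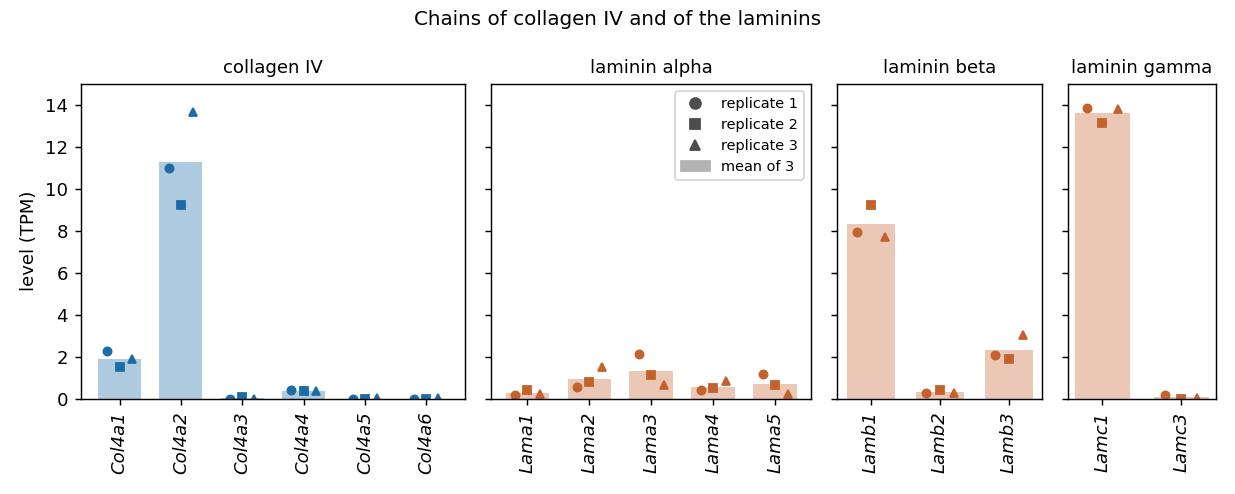
Levels in TPM of the 6 collagen IV chains and laminin alpha, beta and gamma chains, with a symbol per replicate and a bar at the mean of 3. Col4a2, Lamb1 and Lamc1 stand apart at 11.3, 8.30 and 13.6 TPM, and every laminin alpha chain has a mean of at most 1.31 TPM.

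The alpha chains differed in which library was highest. Lama3, the alpha chain of epithelial laminin-332, was at 2.16, 1.12 and 0.644 TPM, and Lama5, a chain of vascular and epithelial basement membranes, at 1.21, 0.687 and 0.243 TPM, both highest in replicate 1. Lama2, the chain of muscle and of perivascular astrocyte membranes, was at 0.555, 0.805 and 1.505 TPM, and the endothelial chain Lama4 at 0.421, 0.501 and 0.832 TPM, both highest in replicate 3. Lama1 was at 0.187, 0.404 and 0.250 TPM. The order of these chains by mean did not hold within libraries: Lama3 minus Lama2 ran from -1.11 to 1.79 in log2 units, and Lama4 minus Lama5 from -1.33 to 1.44.

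Lamb2, the beta chain of synaptic and vascular laminins, had 5, 7 and 5 counts, and Lamb1 exceeded it 19.6-fold with log2 differences from 4.20 to 4.34. Lamc3, found in retina and some cortical neurons, had 3, 0 and 1 counts.

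The 4 highest integrin receptor chains were Itgav, Itgb1, Itga9 and Itga4. Itgav, the alpha chain of receptors for RGD ligands such as vitronectin and latent TGF-beta, was at 19.9, 16.5 and 18.5 TPM (18.3 ± 1.72), on chromosome 2 from 83724397 to 83806916. Itgb1, the beta chain shared by most integrins, was at 16.4, 13.4 and 13.0 TPM (14.3 ± 1.89), on chromosome 8 from 128685654 to 128733200. Itga9 was at 11.4, 12.6 and 16.4 TPM (13.5 ± 2.59) and Itga4 at 10.8, 9.28 and 10.3 TPM (10.1 ± 0.781). Itga4 and Itga9 are related alpha chains that bind VCAM1, osteopontin and fibronectin segments and pair with Itgb1. Itga9 was the higher of them in 3 of 3 libraries, by between 0.08 and 0.67 log2 units.

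Against Itgb1, 38.9% of all genes were called above and 46.6% below. Of the 24 other integrins with a count, 0 were called above (limma; 0 at an unadjusted p under 0.05, 1 with edgeR), 20 below and 4 neither way. Itgav was above Itgb1 in 3 of 3 libraries, by 0.36 in log2 units (SD 0.13), which missed 0.05 (limma, adjusted p = 0.0818). It passed with edgeR (0.37, adjusted p = 0.0472) and with the longest transcript as length (0.87). Itga9 and Itga4 differed from Itgb1 by -0.09 and -0.49 (limma, adjusted p = 0.714 and 0.0590). The Itga4 value passed the threshold with edgeR (adjusted p = 0.0291), in the unmoderated fit (adjusted p = 0.0409) and with at least 10 counts (limma, adjusted p = 0.0495). Itgbl1, a secreted protein with integrin-like repeats that is not a receptor chain, was at 12.01, 9.75 and 9.01 TPM, a difference of -0.48 (limma, adjusted p = 0.0584), which passed in the unmoderated fit (adjusted p = 0.0120) and with at least 10 counts (limma, adjusted p = 0.0482). The related Itgb2l had no count.

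Among the beta chains other than Itgb1 that pair with Itgav, Itgb8, which activates latent TGF-beta, led with 3.08, 6.91 and 2.97 TPM. Replicate 2 stood apart, at 2.32 times the lowest library. Itgb5 was at 2.25, 2.10 and 2.05 TPM, nearly the same in 3 of 3 libraries, and its range did not overlap that of Itgb8. Itgb3, known from platelets and from synaptic scaling in neurons, was at 1.66, 3.01 and 1.41 TPM, and like Itgb8 was highest in replicate 2. Itgb8 exceeded Itgb3 by a log2 difference of 1.02 (SD 0.16) and Itgb5 by 0.88 (SD 0.69), in 3 of 3 libraries each. Against Itgb1 the differences were -1.80 for Itgb8, -2.68 for Itgb5 and -2.82 for Itgb3 (limma, adjusted p = 0.00401, 0.000454 and 0.000753). The Itgb8 call was lost in an unmoderated fit (adjusted p = 0.0725) and without the length correction (-0.39). The epithelial chains Itgb4 and Itgb6 had 9, 21 and 1 and 1, 2 and 0 counts.

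The laminin-binding alpha chains were led by Itga3. This chain, a laminin receptor chain present in neurons, was at 9.72, 6.41 and 4.43 TPM, highest in replicate 1, and lay at -1.11 against Itgb1 in log2 units (limma, adjusted p = 0.00744). It no longer passed in an unmoderated fit (adjusted p = 0.0566), without the length correction (-0.63) or without replicate 2 (-1.14). Itga6, a laminin receptor chain of endothelium and stem cells, was at 1.73, 0.551 and 1.34 TPM, and the muscle chain Itga7 had 2, 5 and 4 counts. The fibronectin receptor chain Itga5 was at 3.46, 1.58 and 2.60 TPM, Itga8 at 0.492, 2.75 and 1.79 TPM, and the platelet chain Itga2b at 0.266, 0.456 and 0.952 TPM.

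The 4 alpha chains that bind collagen were low, and none reached 1 TPM in 3 of 3 libraries. Itga11 was at 0.778, 0.831 and 1.75 TPM, Itga1 had 16, 12 and 1 counts, Itga10 6, 3 and 0, and Itga2 4, 3 and 0. Leukocyte integrins were near 0 apart from Itgam, the alpha chain of the microglial complement receptor. Itgam was at 2.74, 1.41 and 1.38 TPM from 38, 20 and 20 counts, while Itgb2, its obligate beta chain, had 0, 1 and 0. Exons of the annotated gene Gm49368 on the same strand cover 68.7% of the Itgam exons. Those of Gm42957, also on the same strand, cover 33.5% of the Itga10 exons, and other genes on either strand cover 19.7% of the Itgad exons. Itgad had 0, 3 and 2 counts, Itgal 3, 0 and 2, and Itgae 1, 1 and 0, while Itgax and Itgb7 had 0 in 3 of 3 libraries.

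In the order of levels, few neighbours were separated by more than the spread over libraries. Among collagens, Col19a1 and Col4a2 differed by 0.36 (SD 0.42) in log2 units, while Col4a2 exceeded the next gene Col20a1 by 1.42 (SD 0.27). From Col23a1 down to Col1a1, no gene exceeded the next by more than the SD of the difference. Col6a1, the gene after Col1a1, exceeded Col9a2 by 0.43 (SD 0.41). Among laminins, Lamc1, Lamb1 and Lamb3 formed steps of 0.71 (SD 0.18) and 1.81 (SD 0.46). Among integrins, Itgb1, Itga9, Itgbl1 and Itga4 were not separated from their neighbours within that run.

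Variation between libraries was tested as a chi-square of the counts against TMM library sizes (trimmed mean of M-values), for genes of at least 1 CPM on average. Of the 12949 genes tested, 74.3% varied by more than counting noise. Of 38 members tested, 24 did (63.2%), namely 8 of 16 collagens, 4 of 8 laminins and 12 of 14 integrins. The count was 12 without replicate 3. The 4 with the largest ratio of highest to lowest TPM were Itga8 (5.58), Lama5 (4.98), Lama3 (3.35) and Itga6 (3.14). Their chi-square tests gave adjusted p-values of 6.99e-07, 3.38e-05, 1.15e-06 and 0.000804.

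The 24 genes did not share a direction. Itga3, Lama3, Lama5 and Itgam were highest in replicate 1. The summed markers of 10 of the 12 cell types, neurons included, were also highest there, among them GABAergic (4403, 4275 and 4035 TPM), excitatory (3806, 3435 and 3478 TPM) and oligodendrocyte genes (483, 324 and 286 TPM). Itgb8, Itgb3 and Itga8 were highest in replicate 2. Col4a2, Col8a1, Col26a1, Lama2 and Itga9 were highest in replicate 3. The part of those markers in these differences was not tested. The largest chi-square value, that of Itgb8 at 72.1 (chi-square, adjusted p = 1.43e-15), rested on replicate 2, and without it the value was 0.250 (chi-square, adjusted p = 0.677). Of the 12 called genes that were retested with a library left out, calls also ended for Itga8 and Lama3 without replicate 1 and for Itga6 without replicate 2. Those of Lama2, Col25a1, Col8a1 and Itga9 ended without replicate 3, and that of Col4a2 without replicate 2 or replicate 3. Lamc1 had the lowest ratio of the 38, at 1.06, with a chi-square of 0.861 (chi-square, adjusted p = 0.679).

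**Figure D4:**
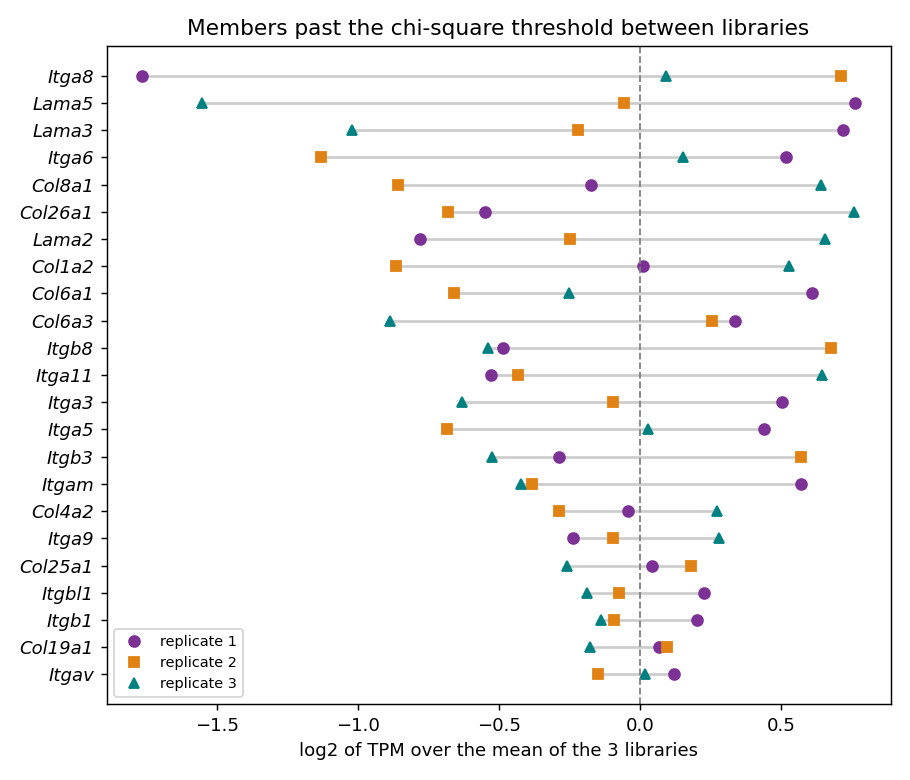
For members past the chi-square threshold, log2 of the TPM in each replicate over the mean of 3, ordered by the ratio of highest to lowest. Itga8 is low in replicate 1, Lama5 and Lama3 are low in replicate 3 and high in replicate 1, and Itgb8 is high in replicate 2.

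Several members lie side by side on the genome. Within 200000 bases of each other lay 15 pairs, of which 3 are head to head, and these are the collagen IV pairs. Col4a1 lies on chromosome 8 from 11198423 to 11312826 and Col4a2 from 11312805 to 11449287, so that the annotated first exons overlap by 22 bases on opposite strands. The run between both start sites is shown because a single short stretch holds the starts of 2 genes whose levels differed 5.68-fold. It is chr8:11312805-11312826 on the plus strand (RefSeq, GRCm38.p6), with CG in capitals:
Col4a2 to Col4a1 starts: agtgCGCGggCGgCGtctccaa

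Col4a3 and Col4a4 start 72 bases apart on chromosome 1, at 0.0357 and 0.401 TPM, and Col4a5 and Col4a6 start 1309 bases apart on the X chromosome, with 1 count each. Col19a1 and Col9a1 end 9205 bases apart, at 14.3 and 0.503 TPM. Col6a1 and Col6a2, 85161 bases apart on chromosome 10, differed by 0.34 (SD 0.58), which is within the spread.

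Promoter sequence was held for 60 of the 83 members in the RefSeq table (GRCm38.p6, 250 bases before to 50 after a start site). Vertebrate promoters differ in their content of CG dinucleotides, and those rich in CG belong mostly to genes active in many tissues. The ratio of observed to expected CG exceeded 0.6 in 10 of the 19 members at 1 TPM or more in every library (52.6%) and in 9 of the 41 others (22.0%), of which 5 had no count. For a like comparison with other genes, members without a count were left out and, for all genes, the window with the lowest coordinate was taken where a gene had several. The shares were then 9 of 19 members (47.4%) and 7 of 36 (19.4%). Over all 12431 genes with a count and a promoter the shares were 73.7% and 32.3%. Across the 55 members with a count, Pearson's r between this ratio and log2(TPM + 0.1) was 0.28 and Spearman's rho 0.27, against 0.41 and 0.38 across all such genes. These values describe genes of the same libraries, which are not independent replicates. The 250 bases before the start are shown for the 2 members above the median gene and, as a contrast, for Col3a1, each 5′ to 3′ on the plus strand with CG in capitals. Those of Col25a1, chr3:130180595-130180844, and Itgav, chr2:83724147-83724396, hold 18 CG each, and that of Col3a1, chr1:45311288-45311537, holds 0. The RefSeq start nearest to the GENCODE 5′ end lay 49344 bases from it for Col25a1, 105002 for Itga9, 94295 for Lamb3 and 2816 for Lama2, so these windows are not at the annotated gene start.
Col25a1: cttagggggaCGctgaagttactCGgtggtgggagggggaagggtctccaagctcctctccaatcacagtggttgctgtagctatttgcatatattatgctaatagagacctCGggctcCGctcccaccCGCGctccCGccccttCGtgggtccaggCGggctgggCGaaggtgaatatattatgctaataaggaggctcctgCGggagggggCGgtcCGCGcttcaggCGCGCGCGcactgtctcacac
Itgav: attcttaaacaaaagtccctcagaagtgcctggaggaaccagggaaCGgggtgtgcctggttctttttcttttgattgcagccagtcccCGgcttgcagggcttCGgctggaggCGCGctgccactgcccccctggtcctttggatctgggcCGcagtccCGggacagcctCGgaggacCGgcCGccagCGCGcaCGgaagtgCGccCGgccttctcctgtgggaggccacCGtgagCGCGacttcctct
Col3a1: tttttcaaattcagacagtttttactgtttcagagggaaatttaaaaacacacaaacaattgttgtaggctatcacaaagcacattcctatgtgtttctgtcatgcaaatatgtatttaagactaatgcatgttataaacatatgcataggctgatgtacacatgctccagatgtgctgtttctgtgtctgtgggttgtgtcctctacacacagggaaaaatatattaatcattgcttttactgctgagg

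The hexamer GGGCGG (on either strand, a box bound by Sp1) was present in 34 of the 60 member windows (56.7%), against 35.7% of all 32851 windows. CCAAT, also on either strand, was in 16 (26.7% against 37.4%), and TATAAA in 5 (8.33% against 13.6%). These sets are not matched: members have 1 window each, while the 32851 windows cover 27025 genes, with or without a count. The median share of G and C was 59% in member windows and 52.7% in all windows. Its part in the motif shares was not tested. Matches of different motifs can share bases. A match is a description of letters only.

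**Figure D5:**
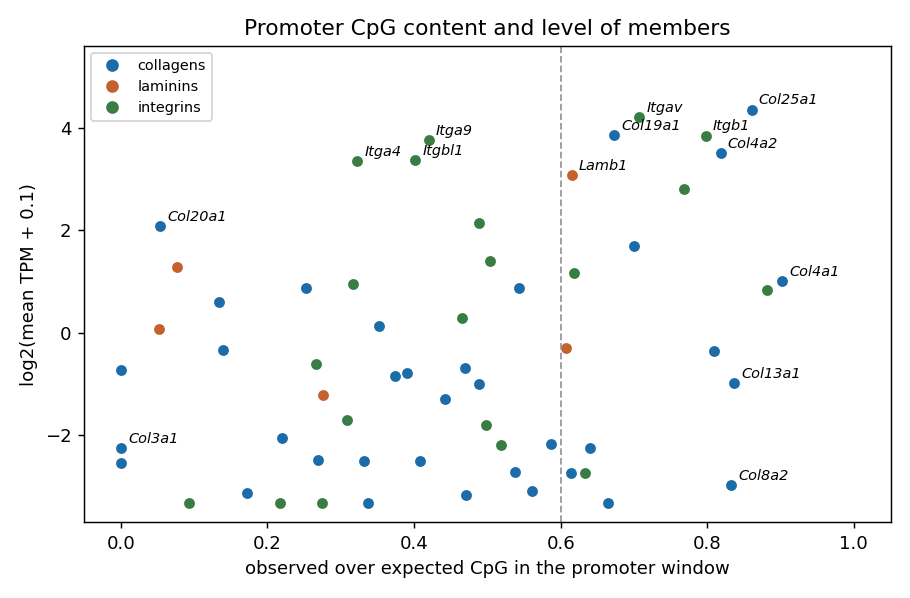
Observed over expected CG content of the promoter window against log2(mean TPM + 0.1) for the 60 members with a RefSeq promoter; the dashed line marks 0.6. Col25a1, Itgav, Col19a1, Itgb1, Col4a2 and Lamb1 lie to the right of the line, while Itga9 (a window 105002 bases from the annotated start), Itga4, Itgbl1 and Col20a1 lie to its left.

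Other genes of the pathway were read from 5 lists that hold no member. Beside the counts of each list stand the shares over all genes, 44.5% above the median gene and 43.9% below it. Of 28 genes that modify or export collagen, 2 were called above the median gene and 22 below (limma). Mia3, a cargo receptor for collagen export from the endoplasmic reticulum, was at 95.4 ± 11.5 TPM, and P4hb, the beta subunit of prolyl hydroxylase and a disulphide isomerase, at 31.5 ± 4.97 TPM. The crosslinking enzyme Loxl1 had no count. Among 12 other basement membrane proteins, 1 was above and 8 below. Smoc1 was at 16.9 ± 5.83 TPM, the heparan sulphate proteoglycan agrin (Agrn) at 12.04 ± 0.811 TPM and Hmcn1 lowest at 0.0679 ± 0.0751 TPM. Nid1 and Hspg2, the linkers between laminin and collagen IV networks, had means of 0.632 and 0.206 TPM and were named after their values were seen.

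Receptors, adaptors and kinases included several abundant genes. Of 11 other receptors for collagen and laminin, 4 were above and 6 below the median gene (limma), against 44.5% and 43.9% of all genes. Rpsa, a ribosomal protein also named laminin receptor, was at 109.7 ± 21.9 TPM, and Dag1, which encodes the dystroglycan subunits that bind laminin alpha chains, at 67.2 ± 2.29 TPM. Adgrg6 was lowest at 1.36 ± 0.276 TPM. Of 21 integrin adaptors and kinases, 11 were above and 7 below, with the focal adhesion family kinase Ptk2b at 147 ± 1.42 TPM, Parva at 58.1 ± 5.37 TPM and the leukocyte kindlin Fermt3 lowest at 0.0209 TPM from 1 count. Of 16 other integrin ligands measured, 1 was above and 12 below. Edil3, an RGD protein, was at 67.2 ± 16.04 TPM, the neuronal adhesion molecule Icam5 at 14.5 ± 3.49 TPM and Tgfb1 lowest at 0.209 ± 0.206 TPM.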

How the data were processed

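The members and lists were chosen with earlier results of these data known. Per the labels, whole-number read counts per gene symbol were deposited for 3 immunopurified libraries, and the submitters' processing notes name STAR 2.0.0e, HTSeq and mm10 without their roles. Annotation, counting mode and strand setting were not given in the sources used here. Overlapping genes may therefore share reads. The 5 lines that name no gene were left out; of all records, 11.9%, 11.0% and 13.1% fell on no feature, 2.49%, 2.83% and 2.68% were ambiguous and 11.2%, 11.3% and 13.1% were not uniquely aligned in replicates 1, 2 and 3. The floor behind a count of 0 is 3 counts and covers counting error only.

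TPM was computed from the deposited counts with the merged exon length of GENCODE M21 (GRCm38). Of the symbols, 23155 matched directly, 736 by an older name in the RefSeq gene table and 8641 had no length. All 83 members had a length. With 1 group no contrast exists, so log2(TPM + 0.1) minus a reference in the same library (the median gene, Col4a1, Lamc1 or Itgb1) was tested against 0 with limma 3.58.1 (two-sided, moderated with a trend) over all genes with at least 1 count. Variation was tested by chi-square with TMM sizes from edgeR 4.0.16. edgeR's quasi-likelihood fit with length and reference as offset and DESeq2 1.42.0 size factors were alternatives, as were pseudocounts of 1 and 0.01, other lengths, filters and references, an unmoderated fit and each library left out. Named with values in every library were the 3 highest of each class (all in classes of 5 or fewer), the references, members of at least 20 TPM and the 5 most variable; of each pathway list, the highest 2 and the lowest. A member that the counts include is not reported here by name. The fits were tested on simulated data. Software was Python 3.11.15 with NumPy 2.4.6, pandas 2.3.3 and matplotlib 3.10.9, and R 4.3.3.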

Additional observations from a re-analysis of the deposited data

How the results depend on the processing

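Each alternative was run for the counts of members called and for the gene values printed with a test. Pseudocounts of 1 and 0.01 changed no call of a gene printed with a test, and a pseudocount of 1 moved collagens below Col4a1 from 27 to 29. The count of members above the median gene, 2, was 3 with edgeR and 8 without the length correction. It was 0 with genes of at least 10 counts or against the median of genes of at least 1 TPM. Members below the median gene ran from 65 to 75 except with the filter (47) and the unmoderated fit (60). Collagens below Col4a1 went from 27 to 11 with at least 10 counts, a filter that tests fewer genes. Integrins above Itgb1 were 1 with the longest transcript or edgeR and 3 without the length correction. Members varying between libraries ran from 12 to 17 with a replicate left out, against 24.

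Differences from the median gene changed sign as follows. Against genes of at least 1 TPM, Col25a1 was at -0.21, Col19a1 -0.71, Col4a2 -1.07, Itgav -0.36, Itgb1 -0.72, Itga9 -0.81 and Lamc1 -0.78. With at least 10 counts, Col19a1 was at -0.21, Col4a2 -0.56, Itgb1 -0.21, Itga9 -0.31 and Lamc1 -0.28. With the longest transcript, Col4a2 was at -0.37, Itga9 -0.020 and Lamc1 -0.0048. Without the length correction, Itga4 was at 1.59 and Lamb1 at 0.82. With a replicate left out, Col4a2 ran from -0.10 to 0.16 and Itgbl1 from -0.30 to 0.0051. Against Itgb1, Itga9 turned to 0.82 and Itga4 to 1.28 without the length correction, and Itga9 to 0.12 without replicate 1. Against Col4a1, Col1a1 ran from -0.46 to 0.22 with a replicate left out. The cause was not tested. No paired analysis was possible because there is 1 group. Variation between libraries was not tested for members under 1 CPM on average.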
